A study of Mus musculus with 16 samples.

Results

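Abcb1a, Pcsk1 and Acot7 were described across naive mouse T cells with and without Tsc1. They were picked by measured values, because all of them were higher without Tsc1 both in stimulated CD4 cells and in resting CD8 cells. Every probe set that the platform table assigns to one of these symbols alone was taken, which gave 4 probe sets for 3 genes, of 28898 probe sets and 17097 genes named in this way. Abcb1a has 2 probe sets, of which the one with the higher mean over all arrays is called its lead probe set, and Pcsk1 and Acot7 have 1 each.

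The study used 16 single-colour Affymetrix expression arrays of T cells sorted from mice of C57BL\6 background. Tsc1-deficient CD4 cells were measured resting (0 h, 3 arrays) and after 4 h on plate-bound antibodies to CD3 and CD28 (3 arrays), each beside 3 arrays of wild-type CD4 cells. Resting CD8 cells were measured on 2 arrays of each genotype, so stimulation was not measured in CD8 cells. The stimulated cells were kept in Click medium. No group was cultured for 4 h without the antibodies. Differences by stimulation below therefore cannot be told apart from effects of time in culture. The treatment text mentions a HIF1a-deficient strain once, whereas titles and genotype entries give Tsc1 throughout, and these were followed. The sources used here do not name a Cre driver, the deleted part of Tsc1 or the number of mice behind an array. P-values therefore measure the spread between arrays, which may be technical, and the number of arrays limits the precision.

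Tsc1 is a subunit of the TSC complex, which turns off the small GTPase Rheb and thereby restrains the kinase complex mTORC1, a driver of growth and anabolic metabolism. In naive T cells this brake helps to keep the cells small and quiescent. Abcb1a encodes a P-glycoprotein, an ATP-driven pump in the plasma membrane that exports many hydrophobic compounds and dyes. Rodents carry the close paralog Abcb1b beside it, and human lymphocytes are known to have pump activity from the related gene ABCB1. Pcsk1 encodes prohormone convertase PC1/3, a serine protease of secretory granules that cleaves prohormones at pairs of basic residues and is best known from endocrine cells and neurons. Acot7 encodes an acyl-CoA thioesterase that splits long-chain acyl-CoA into free fatty acid and coenzyme A and is abundant in brain.

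The promoter windows are shown so that a reader can see what the start sites of the 3 genes do and do not share. The genes were picked for moving with genotype, so this is no separate reason to expect shared letters. Each window holds 250 bases before and 50 after the annotated start, from RefSeq on GRCm38.p6, and all 3 genes were matched. Other starts were not looked at, and the arrays do not show which start these cells use. The windows lie at chr5:8566841-8567140 for Abcb1a, chr13:75089607-75089906 for Pcsk1 and chr4:152185358-152185657 for Acot7, all on the plus strand. Capitals mark matches, on either strand, to the forkhead motif GTAAACA or the GC box GGGCGG.
Abcb1a promoter: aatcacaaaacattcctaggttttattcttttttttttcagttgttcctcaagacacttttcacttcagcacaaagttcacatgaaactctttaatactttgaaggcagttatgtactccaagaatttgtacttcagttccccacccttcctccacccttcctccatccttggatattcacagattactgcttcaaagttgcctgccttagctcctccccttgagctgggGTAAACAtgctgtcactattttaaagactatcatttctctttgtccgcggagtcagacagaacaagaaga
Pcsk1 promoter: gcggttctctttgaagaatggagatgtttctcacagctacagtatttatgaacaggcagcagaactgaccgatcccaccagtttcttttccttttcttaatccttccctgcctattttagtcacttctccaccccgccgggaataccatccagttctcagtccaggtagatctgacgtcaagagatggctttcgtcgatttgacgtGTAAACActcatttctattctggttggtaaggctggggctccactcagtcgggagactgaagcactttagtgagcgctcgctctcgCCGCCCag
Acot7 promoter: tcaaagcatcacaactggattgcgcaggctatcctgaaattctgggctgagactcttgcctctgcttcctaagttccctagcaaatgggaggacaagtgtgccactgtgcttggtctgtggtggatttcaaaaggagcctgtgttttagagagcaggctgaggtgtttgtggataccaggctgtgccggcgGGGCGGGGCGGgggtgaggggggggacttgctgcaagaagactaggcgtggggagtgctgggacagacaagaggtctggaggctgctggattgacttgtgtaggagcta

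The forkhead letters began at base -20 from the start in Abcb1a and at base -44 in Pcsk1, and Acot7 had no match. This motif occurs in 3.65% of 32851 mouse promoter windows of the same length. The GC box matched at base 42 in Pcsk1 and at bases -59 and -54 in Acot7, where the matches overlap by a base, and 35.7% of windows hold it. None of the 3 windows matched the E-box CACGTG (in 7.15% of windows), the CCAAT box (37.4%), TATAAA (13.6%) or the AP-1 letters TGANTCA (7.81%), searched on both strands. GC content was 40.3% in the Abcb1a window, 49.3% in Pcsk1 and 56% in Acot7, around a median of 52.7% over all windows. CpG dinucleotides numbered 2, 13 and 6 in that order of genes, around a median of 7. A match is a description of letters and not of a bound site.

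Values below are deposited log2 signals (RMA, per the submitters' processing notes), so a difference of 1 is a doubling of signal. The median of the whole table was 3.36, and signals below it may lie near background, where a fold is less certain. Replicate arrays correlated at 0.987 to 0.996. On stimulated deficient CD4 replicate 1 and deficient CD8 replicate 2 the 3' control probe set of Gapdh exceeded the 5' one by 0.956 and 0.642, against 0.0241 to 0.404 on the other arrays. The members' differences on lead probe sets are given with and without these arrays, and so are calls of other named genes that ended without them. Tsc1 itself was lower on its lead probe set, at 6.22 to 6.54 over the deficient arrays, against 6.88 to 7.54 over the wild-type arrays. Its genotype difference at rest was -0.83 ± 0.095 in CD4 (SE, adjusted p = 0.000122, limma) and -0.55 ± 0.12 in CD8 cells (adjusted p = 0.0164), and with stimulation -1.06 ± 0.095 (adjusted p = 1.75e-05). The other Tsc1 probe sets were not called in any of these comparisons. The sources used here do not say which probe sets lie in the deleted part, so a probe set outside it checks nothing. In sorted cells measured in bulk, fewer cells with a transcript and less transcript per cell cannot be told apart.

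The sort was compared with lists of marker genes. The T cell list averaged 11.004 to 11.2 in resting groups and 9.96 to 10.3 after stimulation. Cd8a and Cd8b1 together averaged 11.8 to 12.1 on CD8 arrays and 5.41 to 7.83 on CD4 arrays, and the CD4 lineage list averaged 3.91 to 4.20 on CD8 arrays and 5.40 to 6.87 on CD4 arrays. On resting CD4 arrays Cd8a and Cd8b1 averaged 6.78 to 6.94 in deficient and 7.10 to 7.83 in wild-type cells, without overlap, though neither gene was called. After stimulation their ranges overlapped, at 5.41 to 5.79 in deficient and 5.53 to 6.11 in wild-type cells. Some defining markers of other cells were below the table median in every group, namely Pax5 (B cells), Ncr1, Klrb1c and Klra8 (NK cells), Cd14, Itgam and Fcgr1 (monocytes), Itgax, Flt3 and Xcr1 (dendritic cells), and Cdh5, Cldn5 and Tek (endothelium). Other genes of those lists were above it, among them 3 or 4 of 5 measured B cell genes, 2 or 3 of 6 NK cell genes, and 3 or 4 of 7 monocyte genes per group.

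Several of these lists moved with genotype beside the members. The B cell list averaged 4.40 to 4.79 in deficient and 4.23 to 4.41 in wild-type resting CD4 cells, 3.94 to 4.13 and 3.66 to 3.80 in stimulated CD4 cells, and 4.91 to 5.07 and 4.66 to 4.71 in CD8 cells, deficient before wild-type each time. Its gene Cd79b was called higher in CD8 cells (0.99, adjusted p = 0.0220, limma). The NK cell list averaged 4.38 to 4.53 in deficient and 3.71 to 4.10 in wild-type resting CD4 cells, with no overlap, 3.18 to 3.72 and 2.91 to 3.18 after stimulation, and 4.20 to 4.53 and 3.79 to 4.21 in CD8 cells. Gzma of that list was called higher in stimulated CD4 cells (1.61, adjusted p = 0.00674). The monocyte list averaged 3.55 to 3.77 in deficient and 3.32 to 3.43 in wild-type stimulated cells, where Lyz2 (1.18, adjusted p = 0.0430) and Cd68 (0.76, adjusted p = 0.00292) were called higher, and its ranges overlapped in resting CD4 cells. In CD8 cells it averaged 3.76 to 3.93 in deficient and 3.91 to 4.10 in wild-type cells.

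The regulatory T cell list averaged 5.29 to 5.83 in deficient and 5.44 to 5.69 in wild-type resting CD4 cells, which overlapped, as did 5.38 to 5.80 in deficient and 5.32 to 5.39 in wild-type CD8 cells. In stimulated CD4 cells it averaged 6.52 to 6.67 in deficient and 6.12 to 6.30 in wild-type cells, with no overlap, and Ikzf2 was called higher there (0.73, adjusted p = 0.0411). Of the naive list only 2 of 6 genes were measured, Lef1 and Klf2, and both were called lower in stimulated deficient cells (-0.83 and -0.44). At rest neither was called. Their average was still lower there without overlap, at 10.26 to 10.46 in deficient and 10.47 to 10.65 in wild-type CD4 cells. In CD8 cells it was 10.43 to 10.52 in deficient and 10.65 to 10.67 in wild-type cells. The effector and memory list averaged 5.83 to 5.90 in deficient and 5.44 to 5.62 in wild-type resting CD4 cells. In stimulated CD4 cells it averaged 5.63 to 5.92 in deficient and 5.003 to 5.24 in wild-type cells, and in CD8 cells 6.43 to 6.95 in deficient and 6.27 to 6.38 in wild-type cells. Of its 9 genes, 2 were called higher (Cxcr3, Klrg1) and 1 lower (Cd44) in resting CD4 cells, 3 higher in stimulated CD4 cells (Cxcr3, Ccl5, Eomes) and 3 higher in CD8 cells (Cxcr3, Ccl5, Klrg1), of which Klrg1 was not called without the arrays of uneven Gapdh (adjusted p = 0.0716). Neutrophil transcripts also moved with genotype, as described with the members' values below. The part of these transcripts in the members' results was not tested.

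Abcb1a, the efflux pump, had the widest gap of the 3 genes between genotypes in CD4 cells, while in CD8 cells the gaps were alike. In resting CD4 cells its lead probe set read 8.62, 8.47 and 7.93 on the deficient arrays and 4.64, 4.96 and 4.53 on the wild-type arrays. After stimulation it read 8.29, 8.32 and 7.71 in deficient cells and 4.59, 4.32 and 4.35 in wild-type cells. In resting CD8 cells it read 9.22 and 8.57 without Tsc1 and 6.32 and 6.44 with it. The deficient arrays were thus high in all 3 conditions, the wild-type CD4 arrays were low, and the wild-type CD8 arrays lay between.

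The difference in resting CD4 cells, which did not choose the genes although its result was known when they were chosen, was 3.63 ± 0.21 (SE, 12.4-fold, adjusted p = 1.10e-07 by limma over 45037 probe sets). The differences that did choose them are given without a test. They were 3.69 ± 0.21 (12.9-fold) in stimulated CD4 and 2.52 ± 0.25 (5.73-fold) in resting CD8 cells. The second Abcb1a probe set read 8.75, 8.60 and 8.07 in deficient and 4.48, 4.48 and 4.18 in wild-type resting CD4 cells, a difference of 4.10 ± 0.18 (17.1-fold, adjusted p = 7.30e-09, limma). Its differences were 3.93 ± 0.18 (15.2-fold) after stimulation and 2.74 ± 0.22 (6.67-fold) in CD8 cells. After stimulation it read 8.33, 8.57 and 7.93 in deficient and 4.27, 4.43 and 4.34 in wild-type cells, and in CD8 cells 9.16 and 8.79 without Tsc1 and 6.26 and 6.21 with it. Both probe sets gave the same order of groups, with slightly wider gaps on the second. By size of the difference that probe set stood 1st of 45037 in resting CD4, 1st in stimulated CD4 and 7th in resting CD8 cells, and the lead probe set stood 6th, 2nd and 14th. The ranks in stimulated CD4 and in CD8 cells rest on the values that chose the genes.

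Pcsk1, the prohormone convertase, read 4.73, 5.95 and 5.59 in deficient resting CD4 cells and 2.75, 3.07 and 2.63 in wild-type ones. In stimulated CD4 cells it read 4.62, 5.46 and 5.08 without Tsc1 and 2.54, 2.95 and 3.02 with it. In CD8 cells the deficient arrays read 5.61 and 5.89 and the wild-type arrays 3.16 and 3.24. All 8 deficient arrays were above the table median and all 8 wild-type arrays below it, so its folds start from signals that may be near background. The difference was 2.61 ± 0.26 in resting CD4 cells (6.09-fold, adjusted p = 3.13e-05, limma). Its choosing differences were 2.22 ± 0.26 (4.66-fold) in stimulated CD4 and 2.55 ± 0.32 (5.87-fold) in CD8 cells. Among the deficient arrays Pcsk1 was the most scattered of the 3 genes in resting CD4 cells, with an SD of 0.63 (n = 3), against 0.36 for Abcb1a and 0.29 for Acot7.

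Acot7, the thioesterase, read 7.88, 7.40 and 7.35 in deficient and 5.32, 5.22 and 5.17 in wild-type resting CD4 cells. After stimulation the deficient arrays read 7.58, 7.11 and 6.88 and the wild-type arrays 4.87, 5.30 and 4.45. CD8 cells read 8.28 and 7.72 without Tsc1 and 5.32 and 5.60 with it. No array fell below the table median, and genotypes did not overlap in any condition. The difference was 2.31 ± 0.22 in resting CD4 (4.95-fold, adjusted p = 2.19e-05, limma), 2.31 ± 0.22 (4.98-fold) in stimulated CD4 and 2.54 ± 0.27 (5.80-fold) in CD8 cells.

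**Figure D1:**
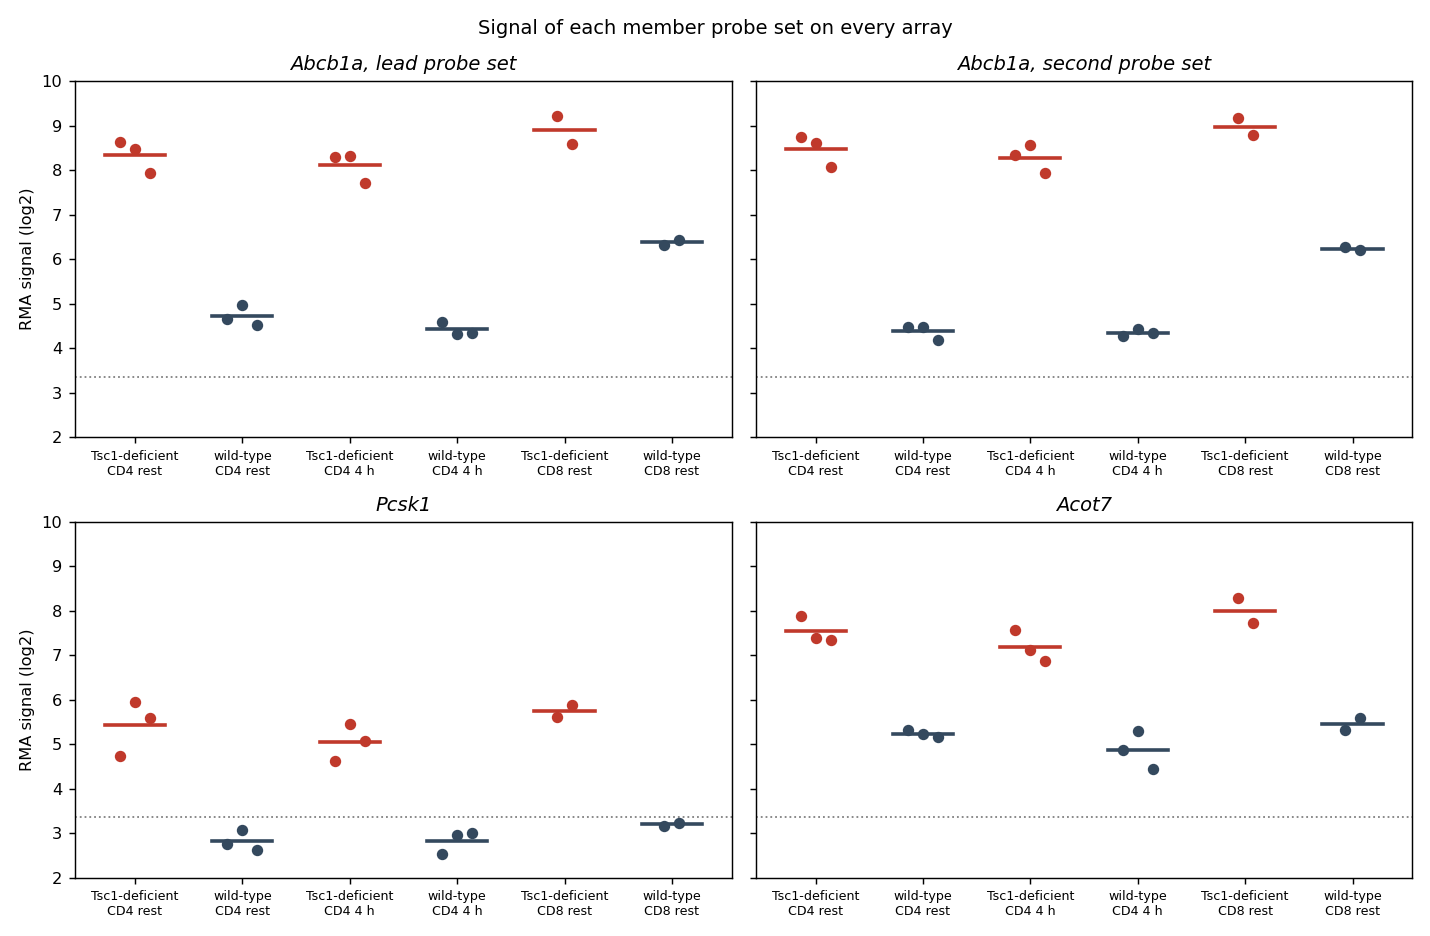
Deposited log2 signal (vertical axes) of the 4 probe sets in the 6 groups, with a point per array, a bar at the group mean and a dotted line at the table median of 3.36. Red points (Tsc1-deficient) lie above blue points (wild-type) in each condition, and wild-type CD8 cells stand above wild-type CD4 cells for Abcb1a.

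All 3 genes were called higher in resting CD4 cells, where 3.06% of 17097 genes were called higher and 1.29% lower. In the comparisons that chose the genes, the same rule called 4.56% higher and 3.01% lower in stimulated CD4 cells, and 2.71% higher and 1.47% lower in resting CD8 cells. Nothing is read from the members' count there. In all, 202 genes were called higher in both choosing comparisons, 46 of them by at least 1 in both. Of the 202 genes, 157 were also called higher in resting CD4 cells. Of the 46 genes, 39 were called higher by at least 1 in all 3 conditions. The members' calls in resting CD4 cells are thus to be read beside these shares and not beside the 3.06%. Ordered by the smaller of the choosing differences, Abcb1a (2.52) was 2nd, Acot7 (2.31) 3rd and Pcsk1 (2.22) 5th, with Rragd just above them (2.76), Mki67 among them (2.26) and Ube2c just below (1.96). These places, too, rest on the values that chose the genes. Without the arrays of uneven Gapdh, the differences of Abcb1a, Pcsk1 and Acot7 were 3.60, 2.44 and 2.12 in stimulated CD4 and 2.84, 2.42 and 2.81 in CD8 cells.

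Stimulated and resting CD4 cells are compared without a test of the members, because the stimulated arrays had chosen them. Over all genes stimulation called 13.2% higher and 20.9% lower in deficient cells, and 12% higher and 18.5% lower in wild-type cells. Abcb1a differed between stimulated and resting cells by -0.23 ± 0.21 in deficient and by -0.29 ± 0.21 in wild-type cells. Its second probe set differed by -0.20 ± 0.18 in deficient and by -0.03 ± 0.18 in wild-type cells. For Acot7 the difference was -0.36 ± 0.22 in deficient and -0.36 ± 0.22 in wild-type cells, and for Pcsk1 -0.37 ± 0.26 in deficient and 0.02 ± 0.26 in wild-type cells. Without the stimulated array of uneven Gapdh, the differences in deficient cells were -0.32 for Abcb1a, -0.55 for Acot7 and -0.15 for Pcsk1. Without resting deficient CD4 replicate 1, where Pcsk1 read 4.73, its difference in deficient cells was -0.71.

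The titles of the CD4 arrays carry numbers that are consecutive for 1 stimulated and 1 resting array of a genotype, and the sources used here do not say what these numbers mark. Taken between such arrays, the stimulated minus resting difference of Abcb1a (lead probe set) was -0.33, -0.15 and -0.21 in deficient and -0.06, -0.64 and -0.18 in wild-type cells. For Acot7 it was -0.31, -0.29 and -0.48 in deficient and -0.45, 0.08 and -0.72 in wild-type cells. For Pcsk1 it was -0.11, -0.49 and -0.50 in deficient and -0.21, -0.12 and 0.38 in wild-type cells. These differences were below 0 for every member in deficient cells and for the lead probe set of Abcb1a in wild-type cells. On the second Abcb1a probe set they were -0.21, -0.05 and 0.16 in wild-type cells. Acot7 and Pcsk1 also had both signs in wild-type cells. The genes share the same arrays, so their differences are not independent. Whether the genotypes differ in this was not tested. Over all probe sets, arrays with consecutive numbers deviated together only weakly, at r of -0.0056 to 0.113. With these arrays as blocks, the SE of the stimulation difference was 0.13 for Abcb1a and 0.14 for Pcsk1 and Acot7.

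On lead probe sets, the genotype difference in stimulated cells minus that in resting CD4 cells was 0.06 ± 0.29 for Abcb1a, 0.01 ± 0.31 for Acot7 and -0.39 ± 0.37 for Pcsk1, also without a test. Without the array of uneven Gapdh it was -0.03, -0.19 and -0.17. The second Abcb1a probe set gave -0.17 ± 0.25 with all arrays. These SEs limit how small a change of the genotype gap could be seen.

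**Figure D2:**
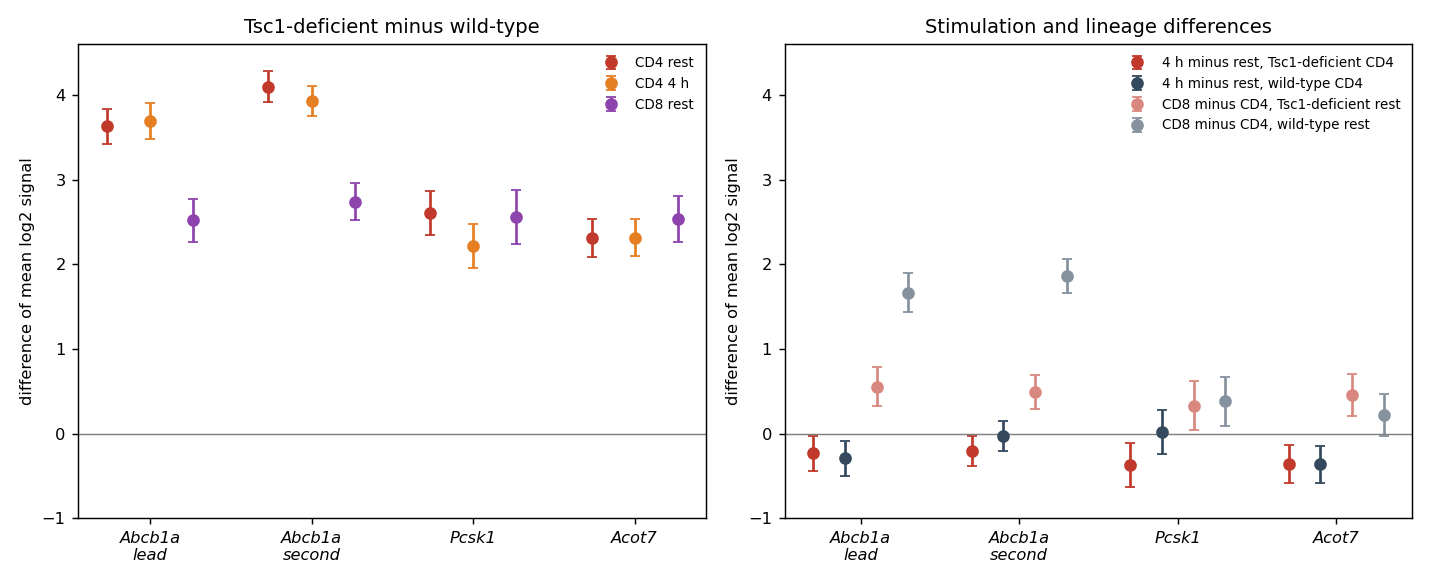
Differences of mean log2 signal ± SE for each probe set, with the genotype differences in the 3 conditions on the left, and the differences by stimulation and by lineage within a genotype on the right. Genotype differences lie between 2.22 and 4.10, stimulation differences between -0.37 and 0.02, and the wild-type CD8 minus CD4 difference of Abcb1a at 1.67 and 1.86.

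Between the lineages, too, the members are described without a test, since the CD8 arrays had chosen them. Abcb1a was the member with the widest step. In resting wild-type cells its signal was 1.67 ± 0.23 higher in CD8 than in CD4 cells (3.17-fold), and on the second probe set 1.86 ± 0.20 higher (3.62-fold), without overlap of the arrays. In deficient cells the CD8 minus CD4 difference of Abcb1a was 0.56 ± 0.23, or 0.88 without the arrays of uneven Gapdh. Pcsk1 differed by 0.33 ± 0.29 in deficient and by 0.38 ± 0.29 in wild-type cells, and Acot7 by 0.45 ± 0.25 in deficient and by 0.22 ± 0.25 in wild-type cells. Without those arrays the differences in deficient cells were 0.19 for Pcsk1 and 0.73 for Acot7. On lead probe sets, the genotype difference in CD8 cells minus that in CD4 cells was -1.11 ± 0.33 for Abcb1a, -0.05 ± 0.41 for Pcsk1 and 0.23 ± 0.35 for Acot7. Without the arrays of uneven Gapdh these values were -0.79, -0.19 and 0.51. The second Abcb1a probe set gave -1.36 ± 0.28 with all arrays.

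The order of the group means was alike at its upper end. Each member was highest in deficient CD8 cells, then in deficient resting and deficient stimulated CD4 cells, then in wild-type CD8 cells. Neighbours among the deficient groups overlapped on every lead probe set. The step from deficient stimulated CD4 to wild-type CD8 cells did not overlap and measured 1.73 for Abcb1a, 1.86 for Pcsk1 and 1.73 for Acot7. Wild-type CD8 and wild-type resting CD4 cells were also separated for Abcb1a, but overlapped for Acot7. For Pcsk1 wild-type CD8 cells lay 0.36 above stimulated wild-type CD4 cells without overlap, all below the table median. Resting and stimulated wild-type CD4 cells overlapped for each gene.

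The members' profiles over the 16 arrays are described over arrays that share the genotype gap by which the genes were picked. Pearson's r was 0.962 between Abcb1a and Acot7, 0.931 between Abcb1a and Pcsk1, and 0.923 between Pcsk1 and Acot7. After each group's mean was taken off, r was 0.561, -0.226 and -0.542 for the same pairs, against 0.863 between the probe sets of Abcb1a. Within groups the sign was thus positive for Abcb1a with Acot7 and negative for either of them with Pcsk1. Among 3554 genes whose group means spanned at least 1, those most like Abcb1a were Acot7, Pou2af1 (r = 0.948), Ada (0.946), Dtx4 (0.943) and Lpin2 (0.940). Those most like Pcsk1 were Rrm2 (0.950), Cep55 (0.947), Mki67 (0.938), Rragd (0.935) and Abcb1a. Those most like Acot7 were Abcb1a, Pou2af1 (0.961), Mki67 (0.955), Rrm2 (0.953) and Rragd (0.949). As background, Pou2af1 is a B cell coactivator, Ada is adenosine deaminase, Rrm2 is a ribonucleotide reductase subunit, Cep55 and Mki67 belong to dividing cells, and Rragd is a Rag GTPase that recruits mTORC1 to lysosomes.

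Neutrophil transcripts moved with genotype beside these results. The 7 measured genes of the neutrophil list (of 8) averaged 4.84, 4.69 and 6.51 on deficient and 3.71, 3.42 and 4.53 on wild-type resting CD4 arrays. The averages were 5.22, 4.84 and 6.22 on deficient and 3.46, 3.30 and 3.84 on wild-type stimulated CD4 arrays, and 4.91 and 5.91 on deficient and 3.59 and 4.64 on wild-type CD8 arrays. Of the list, 4 genes (S100a8, S100a9, Ngp and Camp) were called higher in stimulated CD4 cells, and 0 of 7 in resting CD4 or CD8 cells (6 and 4 at an unadjusted p under 0.05, limma), while Elane was below the table median in every group. The highest neutrophil average of each deficient group was on resting CD4 replicate 3, stimulated CD4 replicate 3 and CD8 replicate 2. On these arrays Abcb1a and Acot7 had the lowest signal of their groups, and Pcsk1 had the middle one in both CD4 groups and the higher one in CD8 cells. With each of those arrays left out in turn, the genotype difference of Abcb1a was 3.84 in resting CD4, 3.89 in stimulated CD4 and 2.84 in CD8 cells. The corresponding values were 2.52, 2.21 and 2.42 for Pcsk1 and 2.40, 2.47 and 2.81 for Acot7.

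**Figure D3:**
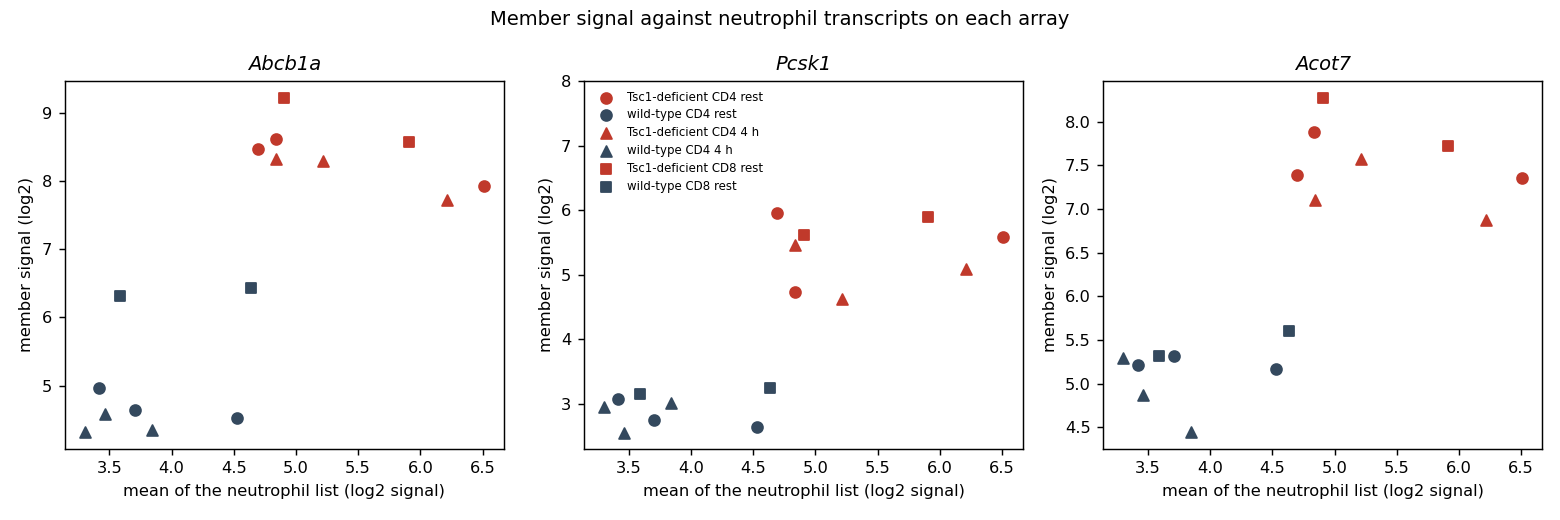
Lead probe set signal of each member (vertical axes, log2) against the mean of the 7 neutrophil genes (horizontal axes, log2), with a point per array, colour for genotype and shape for condition. Deficient arrays lie to the right of the wild-type arrays of their condition and above them for each member.

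Among the relatives of Abcb1a, the paralog Abcb1b was the one that moved most in CD4 cells. Its lead probe set averaged 6.72 ± 0.16 in deficient and 5.47 ± 0.25 in wild-type resting CD4 cells (SD, n = 3), a difference of 1.24 ± 0.16 (SE, 2.36-fold, adjusted p = 0.000282, limma). After stimulation it averaged 7.18 ± 0.32 in deficient and 5.70 ± 0.11 in wild-type cells, a difference of 1.47 ± 0.16 (2.78-fold, adjusted p = 6.997e-05). In CD8 cells the difference was 0.22 ± 0.19 and was not called (adjusted p = 0.672). The CD8 minus CD4 change in its genotype difference was -1.02 ± 0.25. That change did not pass either (limma, unadjusted p = 0.000937, adjusted p = 0.332). Abcb1b rose on stimulation in deficient cells (0.46 ± 0.16, adjusted p = 0.0362), while it was not called in wild-type cells (0.23, adjusted p = 0.355). Whether these stimulation effects differ was tested and did not pass (0.23 ± 0.22, adjusted p = 0.828). Neither test that did not pass shows that the effects are alike. The second Abcb1b probe set lay near the table median and was not called. Abcb4, a phospholipid transporter next to them, also lay near the table median, with differences of 0.23 (adjusted p = 0.475), 0.45 (adjusted p = 0.0534) and 0.45 (adjusted p = 0.150). Abcb1a and Abcb1b are close paralogs, and probe sequences were not used here, so how far either transcript binds the other's probes was not tested.

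Of 42 other measured genes of the ABC family (53 listed in all), 2 were called higher and 0 lower in resting CD4 cells, 2 and 2 after stimulation, and for CD8 cells the counts were 3 and 2. The list also holds Abce1 and the Abcf genes, which belong to the family but are not membrane transporters. The median difference of these 42 genes was -0.00032, 0.00029 and 0.036 in these conditions, beside 0.0097, -0.00071 and -0.0061 over all genes. Apart from Abcb1b in CD4 cells, those higher were Abcf2 at rest (0.57), Abcb6 after stimulation (0.65), and Abcb8 (0.85), Abcb9 (0.63) and Abcf1 (0.50) in CD8 cells. The multidrug resistance protein Abcc1, another exporter, fell by 0.53 in stimulated CD4 (adjusted p = 0.0227, or 0.0543 without the arrays of uneven Gapdh) and by 0.83 in CD8 cells (adjusted p = 0.00832). The exporter Abcc4 fell by 0.71 in CD8 cells (adjusted p = 0.0349). Without the arrays of uneven Gapdh, Abcc4 and Abcf1 were not called in CD8 cells (-0.34 and 0.32, adjusted p = 0.159 and 0.170). Abcf3 fell by 0.57 in stimulated CD4 cells. On stimulation 3 of these 42 genes rose and 13 fell in deficient cells, where 13.2% of all genes rose and 20.9% fell. In wild-type cells 4 rose and 13 fell, beside 12% and 18.5% of all genes. Abcb9, a lysosomal peptide transporter, fell by 1.74 ± 0.12 in deficient and by 1.12 ± 0.12 in wild-type cells, and Abcc4 fell by 1.43 ± 0.14 in deficient and by 1.49 ± 0.14 in wild-type cells.

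Of 8 other measured convertases and inhibitors (11 listed in all), 0 were called higher in any of the 3 conditions by limma. An unadjusted p under 0.05, in either direction, was reached by 2 of them in resting CD4, 3 in stimulated CD4 and 2 in CD8 cells, and their median differences were -0.064, 0.0067 and -0.13. The Golgi protease Mbtps1 fell by 0.41 in stimulated CD4 cells (adjusted p = 0.0245). Scg5, the chaperone 7B2 of the related convertase Pcsk2, averaged 4.25 ± 0.13 in deficient and 5.66 ± 0.05 in wild-type CD8 cells (SD, n = 2), a difference of -1.41 ± 0.13 (SE, adjusted p = 2.26e-05, limma). In resting CD4 cells Scg5 averaged 5.39 in deficient and 5.76 in wild-type cells. The genotype difference in CD8 cells minus that in resting CD4 cells was -1.04 ± 0.17 (adjusted p = 0.0450), in a comparison that called 0.0643% of all genes, and -0.95 without the arrays of uneven Gapdh (adjusted p = 0.0999). On stimulation it fell by 2.26 ± 0.11 in deficient and by 2.79 ± 0.11 in wild-type cells, while Furin, the ubiquitous convertase, rose by 1.08 ± 0.12 in deficient and 0.69 ± 0.12 in wild-type cells. The prohormones and peptide-processing enzymes, the possible substrates and partners of Pcsk1, were called in 0 of 19 cases in resting CD4 and CD8 cells (2 and 0 at an unadjusted p under 0.05, limma). Their median differences were 0.039 in resting CD4, 0.033 in stimulated CD4 and 0.014 in CD8 cells. In stimulated CD4 cells 1 was called higher, the enkephalin precursor Penk (0.56 ± 0.15, adjusted p = 0.0401), at 4.19 ± 0.35 in deficient and 3.63 ± 0.13 in wild-type cells (SD, n = 3).

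Of 15 other measured acyl-CoA thioesterases (18 listed in all), 1 was called higher and 0 lower in each condition, and it was Acot13 each time. The median differences of these genes were 0.0295 in resting CD4, 0.094 in stimulated CD4 and 0.036 in CD8 cells. Acot13, a mitochondrial thioesterase, averaged 9.64 ± 0.08 in deficient and 8.83 ± 0.11 in wild-type resting CD4 cells (SD, n = 3). Its difference was 0.81 ± 0.11 there (SE, adjusted p = 0.000374, limma), 0.65 ± 0.11 in stimulated CD4 (adjusted p = 0.00177) and 0.81 ± 0.13 in CD8 cells (adjusted p = 0.00264). On stimulation Acot13 fell by 1.82 ± 0.11 in deficient and by 1.66 ± 0.11 in wild-type cells (adjusted p = 4.44e-09 and 1.37e-08). Acot9 and Acot10 rose on stimulation in both genotypes, by 0.81 and 0.82 in deficient and by 0.89 and 0.81 in wild-type cells, and Acot8 fell by 0.87 in deficient and by 0.57 in wild-type cells. The acyl-CoA synthetases, which catalyse the opposing step, had 1 of 20 measured genes called lower in resting CD4 cells (Acsbg1, which fell by 0.66, adjusted p = 0.00898) and 0 in the other conditions (4 in stimulated CD4 and 2 in CD8 cells at an unadjusted p under 0.05, limma).

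**Figure D4:**
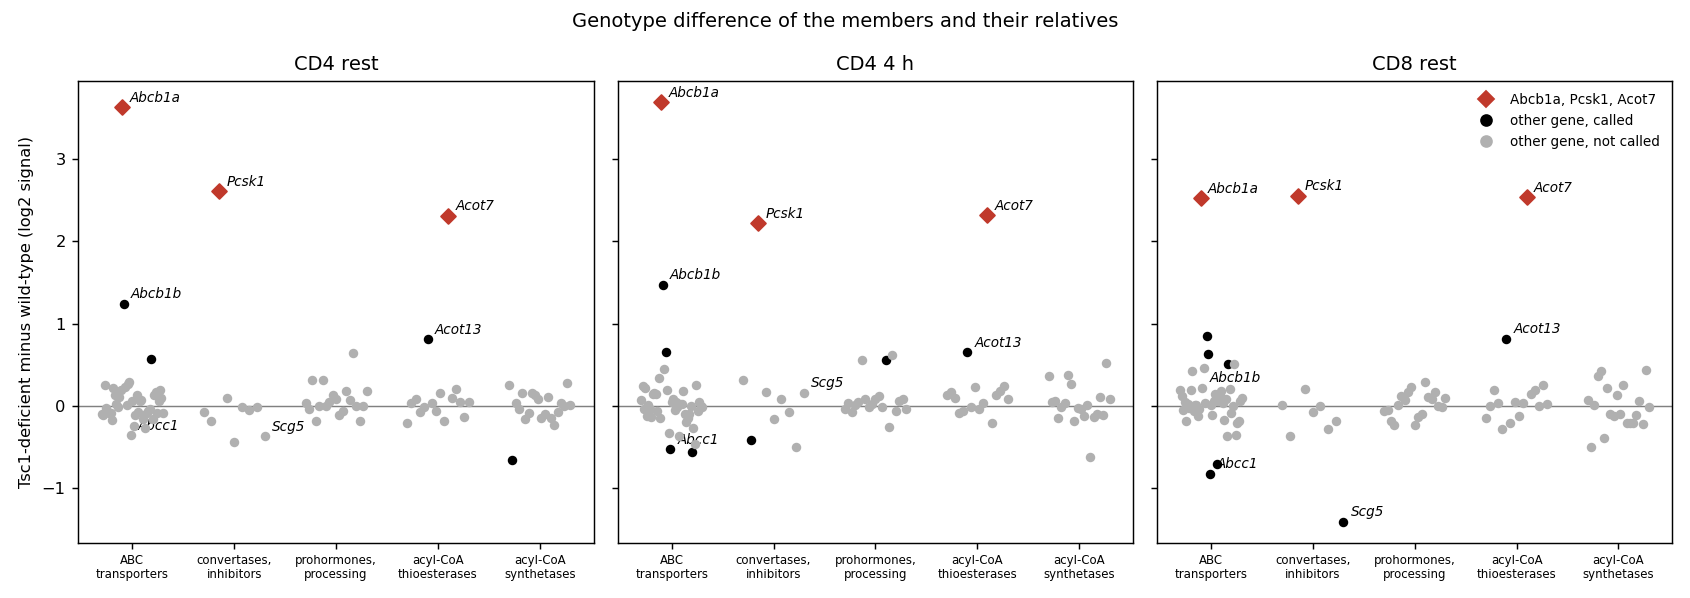
Genotype difference (Tsc1-deficient minus wild-type, log2 signal) of every measured gene in 5 lists, with the 3 members as red diamonds, other called genes in black and uncalled genes in grey. Abcb1b in CD4 cells and Acot13 in all 3 conditions are called above 0 beside the members, and Scg5 lies at -1.41 in CD8 cells.

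The chromosomal neighbours of the members, the 3 nearest measured protein-coding genes on each side in RefSeq, were taken after the members' values were known. Around Abcb1a on chromosome 5, the genes on both sides also rose in CD4 cells. Rundc3b was higher by 1.19 ± 0.11 in resting (adjusted p = 2.15e-05, limma) and 0.90 ± 0.11 in stimulated CD4 cells (adjusted p = 0.000239), with 0.45 in CD8 cells (adjusted p = 0.106, or 0.0421 with 0.60 without the array of uneven Gapdh), and Abcb1b is described above. Slc25a40 rose by 0.39 in stimulated CD4 cells (adjusted p = 0.0257, or 0.0565 without the array of uneven Gapdh), and Dbf4, Abcb4 and Crot were not called. Around Pcsk1 on chromosome 13, the glutaredoxin Glrx rose by 1.07 ± 0.10 in resting CD4 (adjusted p = 1.69e-05), 1.83 ± 0.10 in stimulated CD4 (adjusted p = 2.02e-07) and 0.83 ± 0.12 in CD8 cells (adjusted p = 0.00133). Erap1, an aminopeptidase that trims peptides, rose by 0.51 at rest (adjusted p = 0.0179), and Zfp825, Cast, Ell2 and Rhobtb3 were not called. Around Acot7 on chromosome 4 none rose, and Tnfrsf25 fell by 0.39 in resting CD4 (adjusted p = 0.0311) and by 0.76 in CD8 cells (adjusted p = 0.00149). Espn, Hes2, Gpr153, Hes3 and Icmt were not called.

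**Figure D5:**
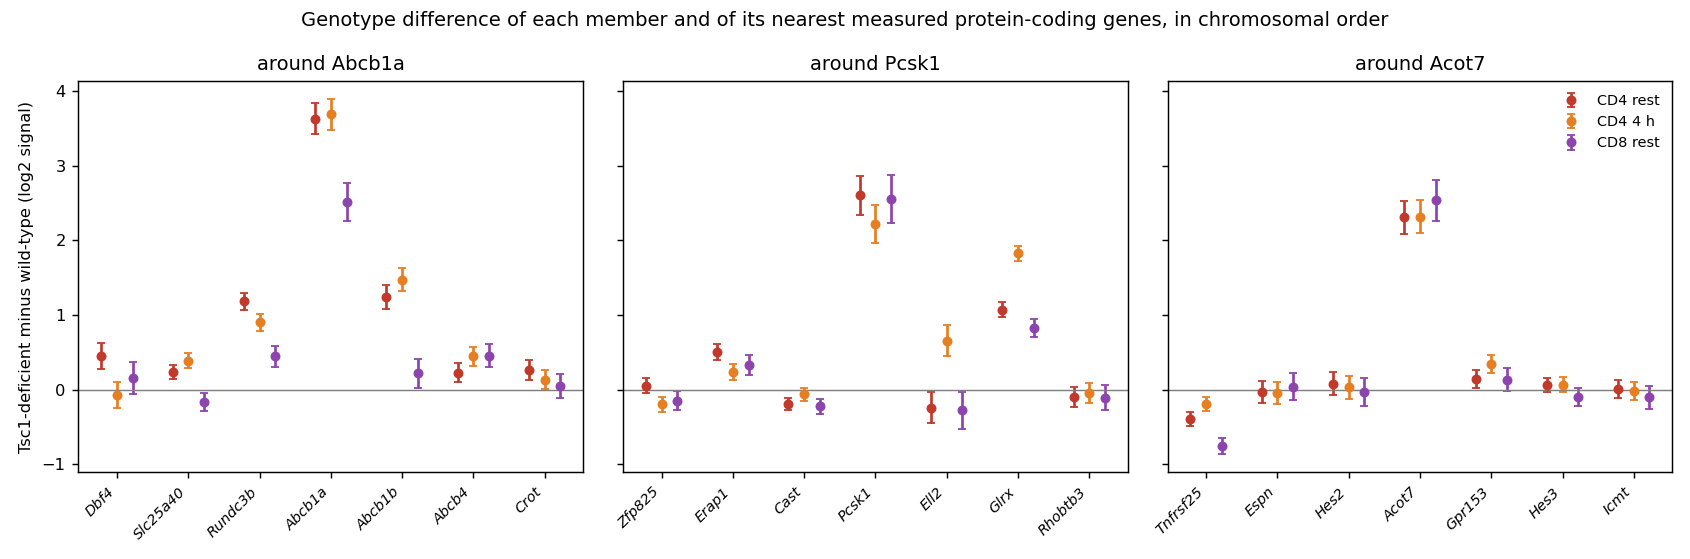
Genotype difference ± SE (Tsc1-deficient minus wild-type, log2 signal) of each member's lead probe set and of its 3 nearest measured protein-coding genes on either side, in chromosomal order, with a colour per condition. Rundc3b and Abcb1b stand above 0 beside Abcb1a in CD4 cells, Glrx stands above 0 near Pcsk1 in all 3 conditions, and no called rise stands beside Acot7.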

How the data were processed

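Total RNA of sorted T cells was labelled with biotin and hybridised to Affymetrix arrays, per the labels' protocols. The deposited values are log2 signals. RMA and Partek 6.5 are named in the submitters' processing notes. The values were used as deposited, and no genome build for them is stated in the sources used here.

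Of 45141 probe sets, 104 were controls, 551 named several genes and 15588 had no name in the platform table. Entrez identifiers of 28689 of 28898 single-gene probe sets matched RefSeq, with 0 symbols changed. A linear model with a mean per group was fitted with limma 3.58.1 in R 4.3.3 to 45037 probe sets on 16 arrays (10 residual degrees of freedom, prior SD 0.152). Benjamini-Hochberg adjustment ran over all probe sets of a comparison, and calls were made at adjusted p under 0.05. Counts of genes use each gene's lead probe set. The pipeline was tested on simulated data.

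The members and lists were chosen with earlier results of these data known. Named genes are the members, Tsc1, Abcb1b, Abcb4, the 5 genes most correlated with each member, and up to 4 called genes with the largest change per list and comparison. Members were tested for genotype in resting CD4 cells alone, because at least 1 arm of every other comparison had served to choose them. Alternatives were probe sets summarised per gene, a filter on dim probe sets, quantile normalization, median centring, an intensity trend, array weights, separate fits, left-out arrays and, added after seeing the data, a fit with consecutive title numbers as blocks. Python 3.11.15 with matplotlib 3.10.9 made the figures.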

Additional observations from a re-analysis of the deposited data

Results flagged for a closer look

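Scg5, which encodes the secretory chaperone 7B2, differed between lineages in its response to the loss of Tsc1. Its genotype difference in resting CD8 cells minus that in resting CD4 cells was -1.04 ± 0.17 (SE, adjusted p = 0.0450, limma). It averaged 4.25 ± 0.13 in deficient and 5.66 ± 0.05 in wild-type CD8 cells (SD, n = 2), and 5.39 ± 0.15 in deficient and 5.76 ± 0.06 in wild-type resting CD4 cells (SD, n = 3). Without the arrays of uneven Gapdh it was -0.95 (adjusted p = 0.0999). The genotype groups did not overlap in either lineage. Groups held 2 or 3 arrays, too few to test a single array as an outlier.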

How the results depend on the processing

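Of the member values recomputed under alternatives, 426 kept their direction and side of the threshold, or, where not tested, stayed within the spread of replicates, and 6 moved further. Part of the 426 was fixed in advance. The lead probe set alone, the dim filter, the intensity trend, separate fits and blocks cannot change an untested difference. Averaging probe sets cannot change it for Pcsk1 and Acot7, which have a single probe set. All 3 members were called in resting CD4 cells under each of 15 alternatives per gene (highest adjusted p = 6.30e-05 for Abcb1a, 0.00193 for Pcsk1 and 0.000268 for Acot7). With an array left out, the difference of Pcsk1 by stimulation in deficient cells ranged between -0.71 and -0.10. The change of the genotype difference between CD8 and CD4 cells was -0.79 for Abcb1a and 0.51 for Acot7 without the arrays of uneven Gapdh, and ranged over -1.43 to -0.79 and -0.048 to 0.51 with an array left out. The cause was not tested. Counts of called probe sets moved more. They were 1374 (genotype, resting CD4), 2564 (stimulated CD4), 1402 (CD8), 13683 and 12112 (stimulation, deficient and wild-type), 1597 and 1345 (CD8 minus CD4, deficient and wild-type) and 21 (change of the genotype difference between lineages). With the lead probe set of each gene alone, which tests fewer features, the counts were 1616 in stimulated CD4, 6041 and 5451 for stimulation and 862 for wild-type CD8 minus CD4, and with probe sets averaged they were 1536, 6025, 5433 and 848, and 917 in CD8. An intensity trend gave 33 for the change between lineages. Array weights gave 2882 in resting CD4, 835 in CD8 and 2206 for wild-type CD8 minus CD4. Fits of the compared groups alone gave 1241 in stimulated CD4, 39 in CD8, 633 for deficient CD8 minus CD4 and 8 for the change between lineages. Without the arrays of uneven Gapdh the counts were 2756 in resting CD4, 2383 in CD8, 2275 for wild-type CD8 minus CD4 and 46 for the change between lineages, and Scg5 was no longer called there (-0.95, adjusted p = 0.0999). With an array left out they ranged over 729 to 901, 1507 to 2660, 388 to 1856, 12088 to 13503, 10486 to 10684, 1012 to 3259, 628 to 989 and 7 to 84 in the order above. Where a group of 2 lost an array, the lone array was taken to vary like the other groups. With stimulated and resting CD4 arrays of consecutive title numbers as blocks, a fit added after seeing the data, the counts for stimulation were 14069 and 12501. Over all probe sets the correlation of deviations was above 0.1 in 2 of 6 such pairs. A resting array correlated best with its own number in 2 of 6. This check does not settle whether the arrays were paired. The block could not change the members' differences, since each block holds a resting and a stimulated array. The SE of the stimulation difference was 0.13 for Abcb1a and 0.14 for Pcsk1 and Acot7 with blocks. Without blocks it was 0.21 for Abcb1a, 0.26 for Pcsk1 and 0.22 for Acot7. Signals below the table median limit the folds of Pcsk1.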
